A study of Mus musculus with 15 samples.

Results

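Mouse embryonic stem cells that kept leukaemia inhibitory factor (LIF) and were exposed to 250 mM sorbitol were compared with cells of the same line grown without LIF. The comparison used 6 of the 15 libraries of the study, chosen by their labels: the 3 named for 250 mM sorbitol (Sorb250 below) and the 3 labelled normal differentiation (ND), which had neither LIF nor sorbitol. The line, REX-1 RFP, carries a red fluorescent protein under the Rex1 (Zfp42) promoter, which is active in undifferentiated cells. Whether it is 1 clone is not given in the sources used here. All cells were first grown with LIF for about 18 h, to a confluence of about 24%, and were then held for 72 h in their condition. The labels' normal stemness cells (NS, LIF and no sorbitol, 3 libraries) are quoted beside both groups to place their levels, and the other 6 libraries had LIF with 200 or 300 mM sorbitol. Since Sorb250 and ND differ in LIF as well as in sorbitol, the effects of the 2 agents cannot be told apart in this comparison.

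LIF binds a receptor made of Lifr and gp130 (Il6st), whose kinases activate the transcription factor Stat3. In mouse stem cells Stat3 keeps genes such as Klf4 and Tfcp2l1 on and holds the naive state, and without LIF the cells leave that state over days. Sorbitol is a sugar alcohol that enters cells slowly and draws water out of them. Cells answer such hyperosmotic stress by taking up or making compatible osmolytes, through transporters such as Slc5a3 and aldose reductases, and by raising chaperones.

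Each library was made from 3' tags, so a count is a tag near a transcript's 3' end and does not grow with gene length. Levels are given as CPM, a gene's counts relative to the library total, scaled with TMM factors, and are listed in the order of replicates 1, 2 and 3. Totals of the 6 libraries ran from 968556 to 2197986 counts, with replicate 1 of both groups the deeper, and 3 counts, the limit that a count of 0 allows, equalled 1.42 to 3.58 CPM. Such limits cover counting error only. Stem cell markers such as Sox2 and Pou5f1 were expressed in all 6 libraries, while 4 of 12 feeder fibroblast markers were at 0 in all 6 libraries and the 12 summed to 20.4 to 22.7 CPM in ND and to 12.6 to 21.4 CPM in Sorb250. Library ND 2 stood apart. The median of its 74 ribosomal protein genes lay 0.84 above the mean of the 15 libraries on the log2 scale, against -0.11 and 0.14 in ND 1 and ND 3 and -0.08 to 0.11 in Sorb250, and its part in the results was measured by leaving it out.

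Of 9390 genes tested, 270 were higher at 250 mM sorbitol than without LIF (2.88%) and 281 were lower (2.99%), 551 in all (5.87%), by edgeR's quasi-likelihood test with an adjusted p under 0.05. The libraries of the 2 groups did not overlap in any of the 551, while over all tested genes they lay apart in the higher direction in 14.6% and in the lower in 14.7%. In 497 of the called genes the level differed by more than 1 on the log2 scale. In 168 it differed by more than 2, of which 99 were higher and 69 lower. No called gene differed by less than 0.69, since small changes rarely pass with 3 libraries a group, so these sizes follow in part from the call. The signed median over all tested genes was -0.01. Scaled by library totals alone, the same fit called 338 higher and 190 lower, a split of 64% higher, with the all-gene median moved to 0.12. With replicates 2 and 3 alone, which were sequenced to a like depth, 91 genes were higher and 49 lower, and replicate 1 gives no test of its own, with 1 library a group. In the same fit ND stood apart from NS in 3 genes, all lower in ND (0.0319% of those tested), and Sorb250 stood apart from NS in 420 (4.47%), higher in 2.01% and lower in 2.46%. These comparisons share libraries, so their values are set side by side below for single genes and are not independent. The 3 calls do not show that ND and NS were otherwise alike. There 600 genes had an unadjusted p under 0.05, against 2010 for Sorb250 and ND. The NS libraries were also uneven (chi-square per degree of freedom 29.3 between NS 1 and NS 3, at most 12.9 within ND and Sorb250). Counts of called list members below stand beside the shares of 2.88% higher and 2.99% lower over all tested genes.

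**Figure D1:**
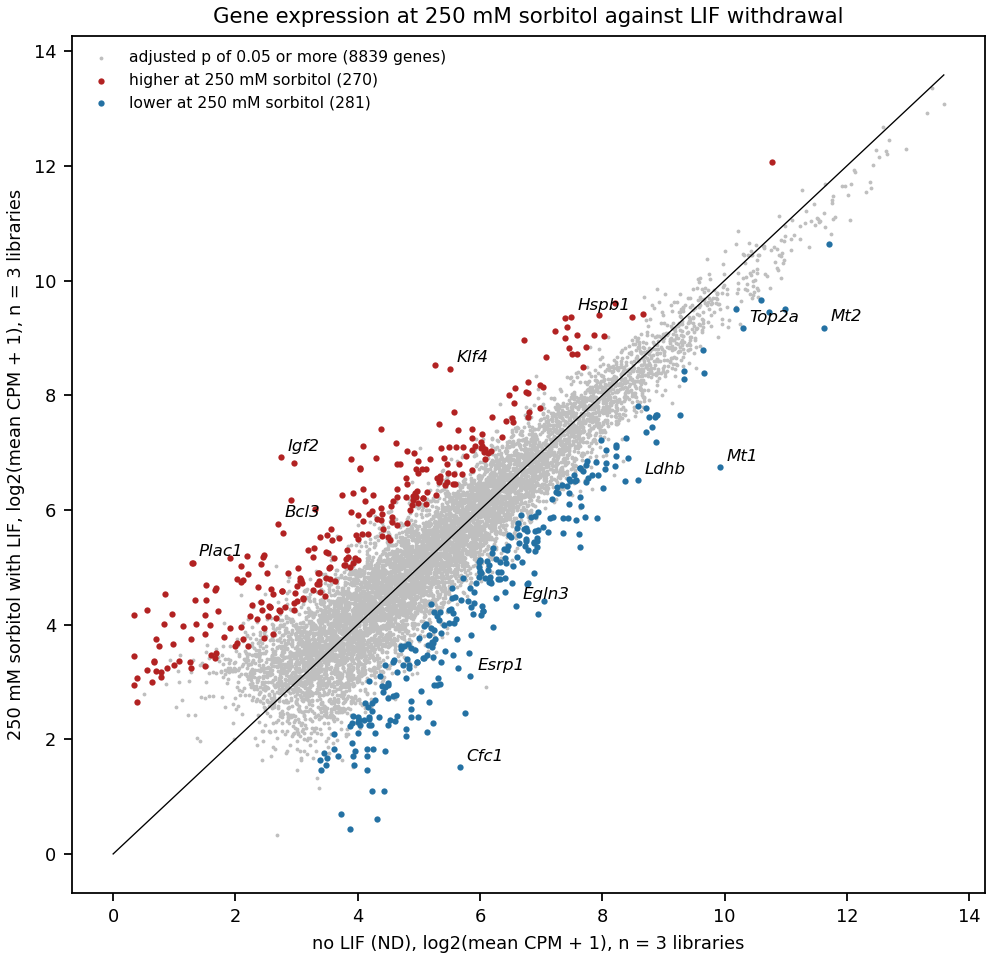
Mean expression of the 9390 tested genes at 250 mM sorbitol with LIF (vertical) against no LIF (horizontal), each as log2(mean CPM + 1) over 3 libraries, with the line of equality. The 270 genes higher with sorbitol (red) lie above the line and the 281 lower (blue) below it, from rare to abundant transcripts.

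Of the LIF pathway, 4 genes were higher in Sorb250 than in cells without LIF. Among the 14 tested genes of the LIF and STAT3 list (18 listed), Bcl3, Klf4, Klf5 and Stat3 were higher and none was lower, with a list median of 0.81 on the log2 scale. Klf4, a Krüppel-like factor of the naive network, stood at 63, 34.6 and 36.6 CPM in ND, 399, 324 and 334 in Sorb250 and 399, 236 and 137 in NS. All 3 Sorb250 libraries lay well above every ND library, and overlapped NS (log2 difference from ND 2.95 ± 0.41, SE, adjusted p = 0.000649). Bcl3, a nuclear IκB protein whose gene STAT3 activates, was at 5.21, 2.39 and 8.75 CPM in ND and 56, 39.7 and 64.1 in Sorb250, with 35.8, 50 and 25 in NS. It too was low without LIF alone (3.22 ± 0.37, adjusted p = 0.000197). The 250 bases before the RefSeq start (GRCm38.p6) hold 0 matches to the STAT element TTCNNNGAA, which reads the same on both strands, for Klf4, Bcl3 and Stat3 and 1 for Socs3, and 7.02% of all promoter windows of that length hold at least 1. Klf4 and Bcl3 are 2 of the 3 genes in which ND differed from NS, by -2.50 and -2.69 (adjusted p = 0.0473 and 0.015), while Sorb250 differed from NS by 0.45 and 0.53, neither past the threshold.

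Stat3 itself, which is among its own targets, was at 54.9, 80 and 37.4 CPM in ND and 169.7, 149 and 135 in Sorb250, with no overlap (1.41 ± 0.27, adjusted p = 0.00584). Klf5, a second Krüppel-like factor of stem cells, was at 182, 130.1 and 231 CPM in ND against 444, 391 and 433 in Sorb250 (1.22 ± 0.25, adjusted p = 0.00957). In both, NS lay above ND and at or below Sorb250, at 98.4, 125 and 120.5 CPM for Stat3 and 391, 361 and 332 for Klf5. Socs3, the feedback inhibitor of the pathway, was at 0.947, 9.55 and 5.57 CPM in ND and 17.3, 34.1 and 43.6 in Sorb250. Its libraries did not overlap, but their spread was wide, and so was that of NS at 2.87, 6.36 and 74.9 CPM, and the difference of 2.76 ± 1.09 did not pass (adjusted p = 0.147). It passed in the fits of the 6 libraries alone, of the 12 without NS, with no filter on low counts and, chosen after the data were seen, without NS 3, so the call depends on libraries outside this comparison. Tfcp2l1, listed in the files as Tcfcp2l1, is a naive factor directly downstream of Stat3. It stood at 217, 158 and 164 CPM in ND and 261, 361 and 327 in Sorb250, again without overlap, and missed the threshold (0.81 ± 0.24, adjusted p = 0.0593). It passed by DESeq2, with library totals alone and with replicates 2 and 3 alone.

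The wider naive network moved in part. Of 20 naive pluripotency genes, all tested, 4 were higher in Sorb250 (Klf4, Klf5, Tbx3 and Gdf3), 1 was lower (Dppa3) and 15 did not pass, with a median of 0.67. Tbx3, a T-box factor that sustains self-renewal, showed the widest gap of the list, at 31.2, 11.9 and 69.2 CPM in ND and 373, 356 and 372 in Sorb250, 3 libraries that were nearly equal. NS lay between, at 96.5, 126 and 162 CPM, so Sorb250 exceeded both (against ND 3.26 ± 0.40, adjusted p = 0.000336, and against NS 1.52, adjusted p = 0.0283). Gdf3, a TGF-β family ligand of stem cells, was at 63, 35.8 and 91.5 CPM in ND and 157, 129 and 148 in Sorb250 (1.17 ± 0.31, adjusted p = 0.0351). Dppa3 (Stella), a maternal and germ cell factor, went the other way, from 120.2, 261 and 189 CPM in ND to 40.3, 63.5 and 63.3 in Sorb250 (-1.77 ± 0.47, adjusted p = 0.0336). The NS libraries of Dppa3 reached from the Sorb250 range into that of ND, at 54.9, 70 and 197 CPM. The calls of these last 2 changed with single libraries. Gdf3 missed the threshold without any 1 Sorb250 library, ND 1 or ND 2 (adjusted p up to 0.128) and Dppa3 without any 1 Sorb250 library, ND 2 or ND 3 (up to 0.144).

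The factors that define the stem cell state did not differ past the threshold. Zfp42, the gene behind the reporter, was at 94.2, 31 and 197 CPM in ND and 141, 234 and 237 in Sorb250, and Nanog at 98, 84.8 and 314 in ND and 143, 230.2 and 251 in Sorb250. Both overlapped between the groups with ND 3 high and ND 2 low (0.91 ± 0.60, adjusted p = 0.42, and 0.33 ± 0.58, adjusted p = 0.802). Esrrb, a nuclear receptor of the naive network, was at 198, 134 and 205 CPM in ND and 258, 328 and 289.8 in Sorb250, every Sorb250 library the higher, with a difference of 0.70 ± 0.31 (adjusted p = 0.198). Pou5f1 (Oct4) was at 64.4, 70.4 and 43 CPM in ND and 50.8, 42.9 and 46.7 in Sorb250 (-0.33 ± 0.40, adjusted p = 0.689). Its count depends on how reads shared with its pseudogenes were treated. Sox2 was at 536, 199 and 414 CPM in ND and 313, 391 and 453 in Sorb250, a log2 difference of 0.00 ± 0.30 (adjusted p = 0.997). A p above the threshold does not show that these levels were equal. Leaving out 1 library moved Zfp42 from 0.47 (without ND 2) to 1.66 (without ND 3) and Nanog from 0.00407 to 1.18 (without the same libraries), none past the threshold. For Sox2, ND 1 was above and ND 2 below the other libraries, and the difference was 0.32 without ND 1 and -0.33 without ND 2.

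**Figure D2:**
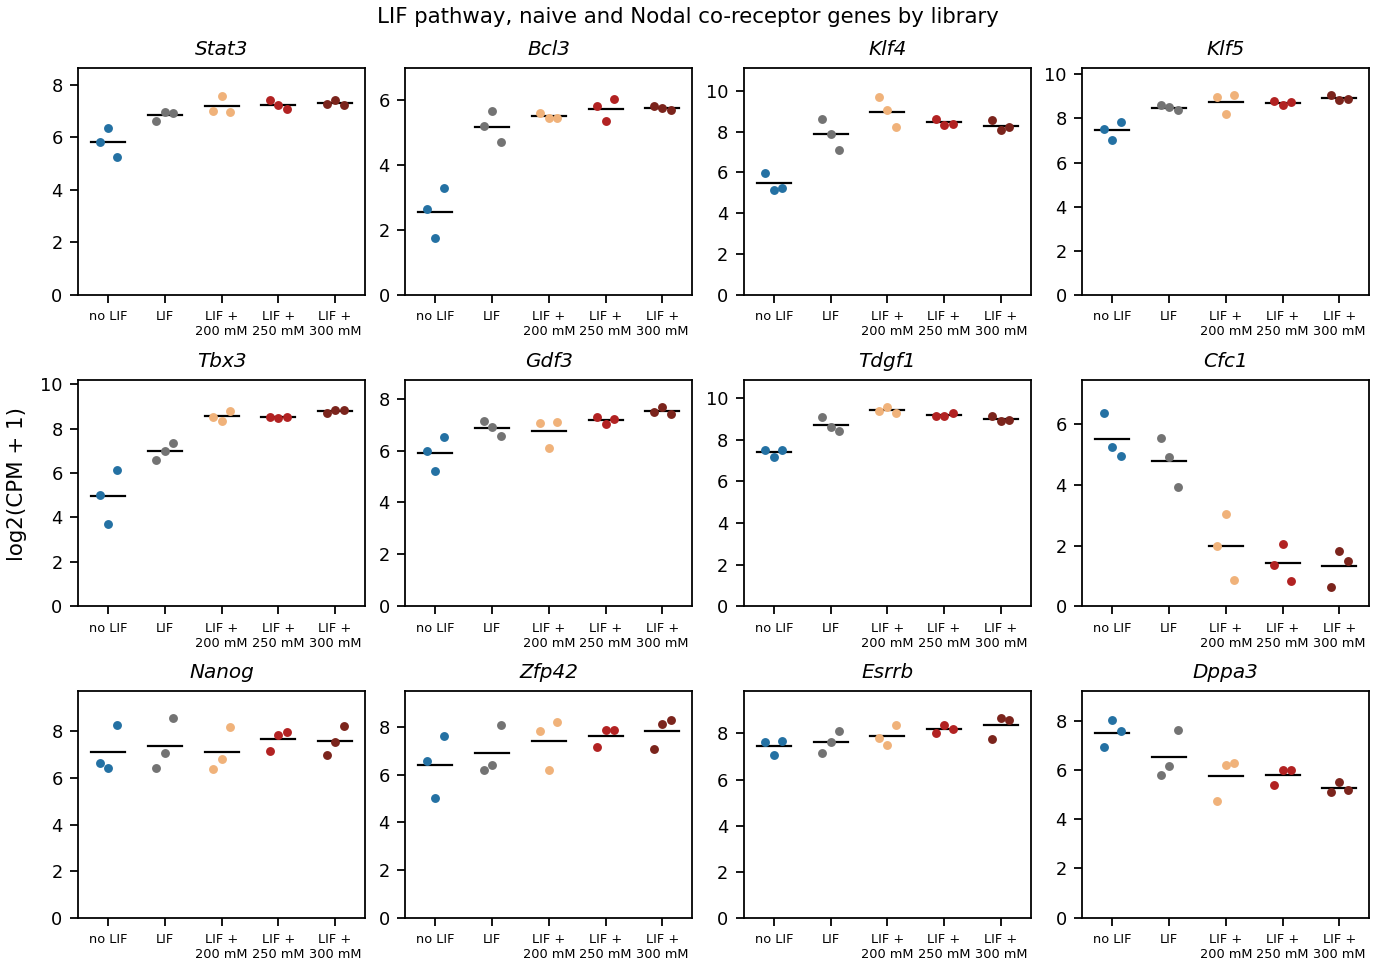
Expression of 12 genes of the LIF pathway, the naive network and the Nodal pathway in each of the 15 libraries, as log2(CPM + 1), with the line at the mean of the 3 libraries of a group. Bcl3, Klf4 and Tdgf1 are low in the libraries without LIF alone, Cfc1 is low in the sorbitol libraries, and Nanog and Zfp42 spread widely within the groups.

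Among 16 general pluripotency genes, Tdgf1, Trim28 and Eras were higher in Sorb250 and none was lower by edgeR (median 0.42). DESeq2 also called Epcam lower (-0.64, adjusted p = 0.0615 by edgeR), and the 6 libraries alone Lin28a (-1.0, adjusted p = 0.136 with all libraries). Tdgf1 was the 1 gene of the 16 to pass without any 1 Sorb250 library or without ND 2. Tdgf1 encodes Cripto, the co-receptor of Nodal, and was at 184, 143 and 184 CPM in ND and 571, 560.4 and 628 in Sorb250, each group tight and far from the other (1.78 ± 0.22, adjusted p = 0.000336). It is the remaining gene of the 3 in which ND fell below NS (-1.32, adjusted p = 0.0473). Its close relative Cfc1 (Cryptic), also a Nodal co-receptor, moved the opposite way and was the most reduced of the genes named here, at 82.4, 37 and 30.2 CPM in ND, 1.57, 3.18 and 0.792 in Sorb250 and 45.4, 29.1 and 14.3 in NS. Here the sorbitol libraries stood alone at the level of a few counts (-4.74 ± 0.66, adjusted p = 0.000665, with Sorb250 against NS at -3.99, adjusted p = 0.00416). Skil, a repressor of Smad signalling that Nodal and TGF-β induce, was at 93.2, 74 and 154 CPM in ND and 35.6, 48.4 and 45.1 in Sorb250 (-1.32 ± 0.32, adjusted p = 0.0229, lost without any 1 Sorb250 library or ND 3, adjusted p up to 0.111). The other 10 tested genes of the 13 in the Nodal list did not pass, and the list median was -0.21.

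Eras, a Ras protein that is active without a stimulus in stem cells, was at 1.42, 0 and 3.18 CPM in ND and 14.1, 22.2 and 25.3 in Sorb250 (3.55 ± 0.91, adjusted p = 0.0301), and Trim28, a corepressor that silences retroelements, at 382, 407 and 427 in ND and 709, 665 and 679 in Sorb250 (0.76 ± 0.21, adjusted p = 0.0406). The ND levels of Eras were at or near the counting floor. Eras missed the threshold without any 1 Sorb250 library, ND 1 or ND 2 (adjusted p up to 0.111), and Trim28 without any 1 of the 6 libraries (up to 0.128). In the formative and primed epiblast list, 15 of 18 genes were tested, of which Dnmt3b and Etv4 were higher, Sox11 was lower and 12 did not pass (median -0.36). Sox11, a neural and primed-state factor, was at 68.6, 44.2 and 53.3 CPM in ND and 7.33, 9.53 and 14.3 in Sorb250, with NS between at 35.8, 30 and 21.4 (-2.44 ± 0.37, adjusted p = 0.00125). Dnmt3b, a de novo DNA methyltransferase, was at 242, 187 and 187 CPM in ND, 419, 311 and 341 in Sorb250 and 106, 119 and 113 in NS, so that Sorb250 was the highest of the 3 groups (0.80 ± 0.21 against ND, adjusted p = 0.0336). It was 1 of 8 tested genes of DNA methylation to pass, where 5.87% of all tested genes did. Its call was lost without any 1 Sorb250 library, ND 2 or ND 3 (adjusted p up to 0.151), and with the 6 libraries alone (adjusted p = 0.0532). Etv4, a target of FGF and ERK signalling and the 1 gene of 12 tested in that list to pass, was at 70.5, 45.4 and 31 CPM in ND and 230.4, 141 and 127 in Sorb250, against 280.4, 213 and 65.1 in NS (1.75 ± 0.49, adjusted p = 0.0443). Its call was lost without any 1 of the 6 libraries (adjusted p up to 0.17).

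Of 19 tested trophoblast genes (22 listed), which mark the lineage of the placenta, 7 were higher with sorbitol than without LIF (Plac1, Gata2, Hand1, Zfp36l3, Krt8, Krt19 and Phlda2), none was lower by edgeR, and the list median of 1.28 compares with -0.01 over all genes. Rhox9 was at -0.90 (adjusted p = 0.0808), and was called lower by DESeq2, with the 6 libraries alone and with the 12 without NS. Between 5 and 7 of the higher genes passed when any 1 of the 6 libraries was left out, and 4 with replicates 2 and 3 alone. In bulk RNA, more cells of a type and more RNA per cell cannot be told apart. Plac1, a placental membrane protein gene, was at 2.37, 1.19 and 0.796 CPM in ND, 39.3, 23.8 and 34.8 in Sorb250 and 0, 0.909 and 0 in NS, with 7 counts in the 3 ND libraries together against 149 in Sorb250 (4.27 ± 0.55, adjusted p = 0.00034). Only the sorbitol libraries were clearly above the counting floor. Gata2, a trophoblast and blood GATA factor, was at 3.31, 2.39 and 0.796 CPM in ND and 17.3, 29.4 and 23 in Sorb250 (3.27 ± 0.53, adjusted p = 0.00207). Hand1, a bHLH factor of trophoblast giant cells and of mesoderm, was at 1.89, 7.16 and 0.796 CPM in ND and 33.5, 28.6 and 32.5 in Sorb250 (3.47 ± 0.56, adjusted p = 0.0019). Zfp36l3, a zinc finger RNA-binding protein of the rodent placenta, was at 1.89, 2.39 and 6.37 CPM in ND and 48.2, 29.4 and 30.1 in Sorb250 (3.36 ± 0.51, adjusted p = 0.00133). For these 3 regulators the lowest Sorb250 library was above the highest ND library several times over.

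The keratins of simple epithelium, which appear first in the trophectoderm, passed in 2 of 4 cases, and Krt7 did not (0.87, adjusted p = 0.232). Krt8 was at 9.94, 7.16 and 39 CPM in ND, with ND 3 high, and at 138, 108 and 112 in Sorb250 (2.66 ± 0.56, adjusted p = 0.0105), and it missed the threshold without ND 1 (adjusted p = 0.054). Krt18, its partner in the filament, was at 67.7, 41.8 and 70 CPM in ND and 216, 118 and 114 in Sorb250, which did not overlap but did not pass (1.31 ± 0.49, adjusted p = 0.125). It passed with the 6 libraries alone and with no filter on low counts, which would make 3 of the 4. For Krt18 the ND libraries already lay above NS, at 22.9, 12.7 and 22.3 CPM. Krt19, another keratin of simple epithelia, was at 12.8, 35.8 and 23.1 CPM in ND and 96.9, 77 and 70.5 in Sorb250 (1.83 ± 0.36, adjusted p = 0.00755). These keratins are genes with processed pseudogenes, so their counts depend on how shared reads were treated. The summed CPM of the whole trophoblast list did not separate the groups, at 1525 to 2023 in ND and 1412 to 2043 in Sorb250.

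Markers of other embryonic lineages were mostly too low to test. Of 12 primitive streak and mesoderm genes 4 were tested, and Hand1 alone passed. Of 12 neural genes 3 were tested and none passed by edgeR or by DESeq2, with 1 at an unadjusted p under 0.05, and of 7 measured genes of the 2-cell-like state none reached the count needed. In primitive endoderm, 5 of 14 genes were tested. Gata6, a GATA factor that specifies this lineage, was at 3.79, 7.16 and 1.59 CPM in ND and 27.8, 30.2 and 15 in Sorb250, every sorbitol library above every ND library (2.62 ± 0.58, adjusted p = 0.0137). Its call was lost without Sorb250 1, Sorb250 2, ND 1 or ND 3 (adjusted p up to 0.061). Apoe, an apolipoprotein, was lower, at 193, 208 and 195 CPM in ND and 95.8, 102 and 116 in Sorb250, with both groups tight (-0.92 ± 0.22, adjusted p = 0.0189, lost without any 1 Sorb250 library, adjusted p up to 0.0916).

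Genes of the basement membrane, the sheet of collagen IV and laminin beneath epithelia, were higher in Sorb250 in 4 of 14 cases (Col4a1, Lamc1, Lama1 and Nid1), with none lower and a median of 0.94. Col4a1, a collagen IV chain, was at 20.8, 9.55 and 13.5 CPM in ND, 60.2, 39.7 and 39.6 in Sorb250 and 17.2, 20.9 and 9.81 in NS (1.61 ± 0.34, adjusted p = 0.01). Lamc1, the laminin γ1 chain, was at 19.4, 40.6 and 28.6 CPM in ND and 74.9, 67.5 and 90.3 in Sorb250 (1.43 ± 0.35, adjusted p = 0.0226), and nidogen (Nid1), which links laminin to collagen IV, at 15.6, 15.5 and 7.96 in ND and 27.2, 32.5 and 43.6 in Sorb250 (1.39 ± 0.32, adjusted p = 0.0173). Neither overlapped. Lama1, a laminin α chain of the early embryo, was at 5.21, 0 and 1.59 CPM in ND and 27.8, 9.53 and 16.6 in Sorb250, with NS nearer the sorbitol level at 8.6, 10 and 14.3 (2.65 ± 0.68, adjusted p = 0.0303). The count of 4 changed with single libraries, and 1 of the 14 passed without Sorb250 1, without Sorb250 3 or without ND 3. With replicates 2 and 3 alone 0 of the 14 passed, and with the 6 libraries alone 6 were higher and Nid2 was lower. Single calls were lost without Sorb250 1 for Col4a1, Sorb250 3 or ND 3 for Nid1, any 1 Sorb250 library, ND 1 or ND 3 for Lamc1 and Sorb250 1, Sorb250 3, ND 2 or ND 3 for Lama1, with adjusted p up to 0.0603, 0.0895, 0.106 and 0.144.

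Imprinted genes, which are expressed from 1 parental copy and many of which govern fetal and placental growth, included 5 that were higher in Sorb250 (Igf2, Peg10, Cdkn1c, Phlda2 and Slc38a4) and 1 that was lower (Meg3) of 14 tested, with a median of 0.34. Igf2, the fetal growth factor expressed from the paternal copy, had the smallest adjusted p of all tested genes. It was at 7.1, 5.97 and 3.98 CPM in ND, 116, 156 and 87.9 in Sorb250 and 1.91, 3.64 and 2.68 in NS, so that the lowest sorbitol library was far above the highest of the other 6 (4.35 ± 0.34 against ND, adjusted p = 4.81e-06, and 5.48 against NS, adjusted p = 6.5e-07). Peg10, a retrotransposon-derived gene needed for the placenta, was at 45, 43 and 51.7 CPM in ND, 293, 198 and 129.9 in Sorb250 and 22.9, 20.9 and 17 in NS, an order of NS below ND below Sorb250 (2.15 ± 0.36 against ND, adjusted p = 0.00231). Cdkn1c (p57), an inhibitor of cyclin-dependent kinases, was at 3.31, 8.36 and 7.16 CPM in ND and 29.3, 32.5 and 24.5 in Sorb250 (2.29 ± 0.46, adjusted p = 0.00784, lost without ND 1, adjusted p = 0.0503). Phlda2, a maternally expressed brake on placental growth, was at 5.68, 14.3 and 34.2 CPM in ND and 108, 69.1 and 49.9 in Sorb250, and passed in 1 of the 6 fits that left out 1 library, that without ND 3 (2.10 ± 0.59 with all libraries, adjusted p = 0.0449). Slc38a4, an amino acid transporter of placenta and liver, was at 290.2, 269 and 221 CPM in ND and 511, 520.0 and 546 in Sorb250 (1.01 ± 0.20, adjusted p = 0.00711). Meg3, a maternally expressed long noncoding RNA, was at 266, 70.4 and 259 CPM in ND, with ND 2 low, and at 48.7, 27 and 43.6 in Sorb250, still without overlap (-2.32 ± 0.49, adjusted p = 0.0106, lost without Sorb250 2, adjusted p = 0.0608).

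**Figure D3:**
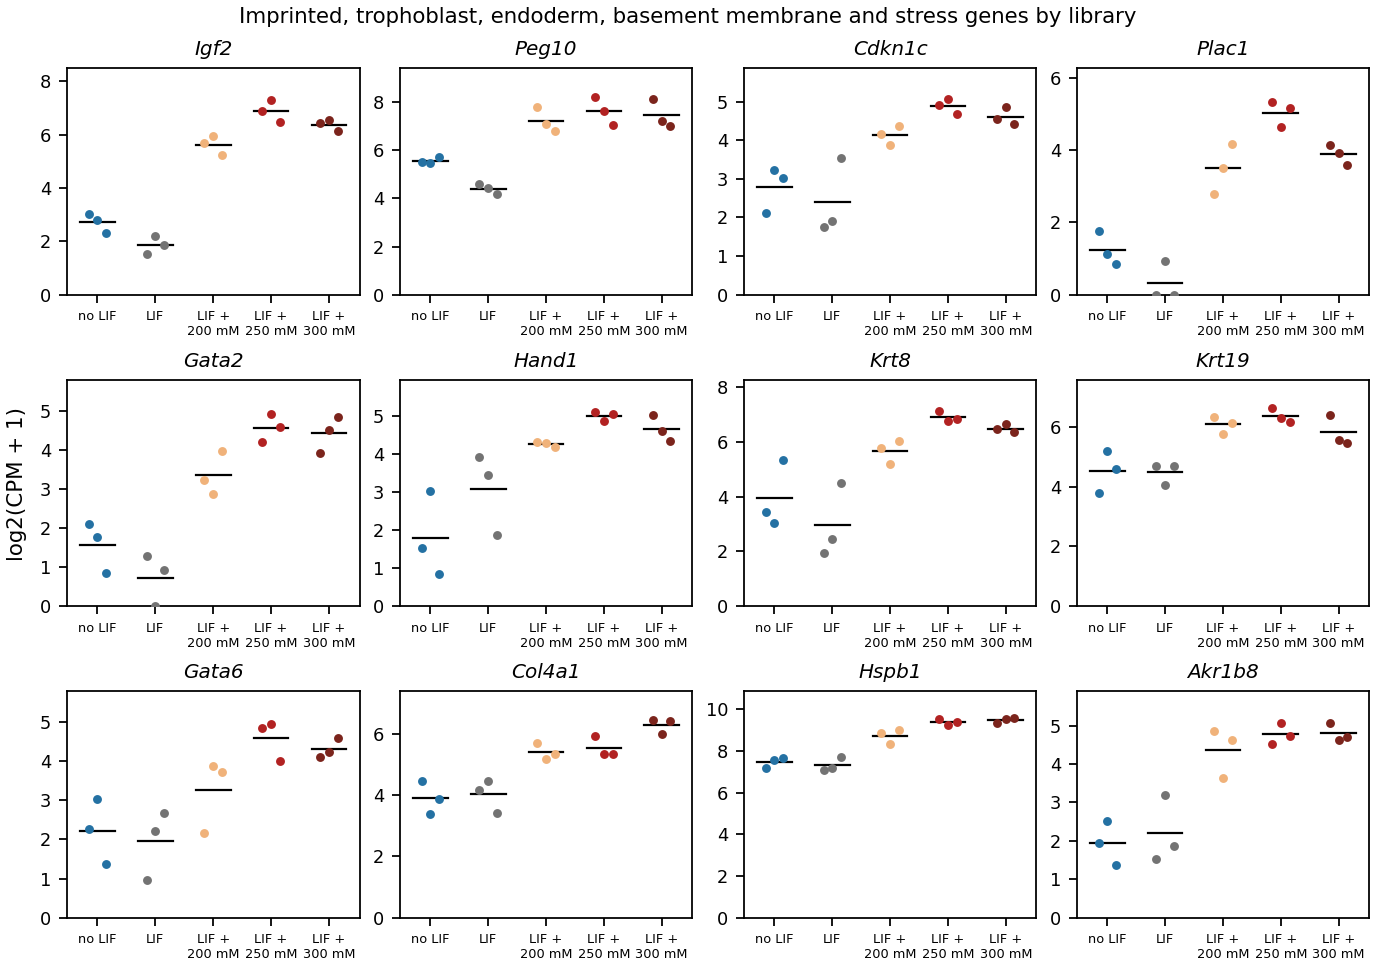
Expression of 12 imprinted, trophoblast, endoderm, basement membrane and stress genes in each of the 15 libraries, as log2(CPM + 1), with the line at the mean of the 3 libraries of a group. The 12 are all among the 270 genes called higher. In each of the 270 the 3 libraries at 250 mM sorbitol lie above all libraries without LIF, as in 14.6% of all tested genes. For Igf2, Plac1 and Gata2 the LIF control is as low as the cells without LIF.

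The osmoadaptation genes moved in both directions. Of 13 tested genes (17 listed), Akr1b8 and Sgk1 were higher, Stk39 was lower and 10 did not pass, with a median of -0.08. With the 6 libraries alone 5 were higher, adding Aqp3, Nfat5 and Slc6a6. With no filter on low counts 5 were higher as well, adding Aqp3, Slc6a6 and Slc6a12, and DESeq2 added Aqp3. With replicates 2 and 3 alone 1 was higher (Akr1b8) and 0 were lower. Akr1b8, an aldo-keto reductase close to aldose reductase, was at 2.84, 4.77 and 1.59 CPM in ND and 22, 32.5 and 25.3 in Sorb250 (3.16 ± 0.51, adjusted p = 0.0019). NS was as low as ND, at 1.91, 8.18 and 2.68 CPM, so the sorbitol libraries stood apart from both. Sgk1, a kinase gene that cell shrinkage is known to induce, was at 22.7, 10.7 and 38.2 CPM in ND and 68.6, 63.5 and 88.7 in Sorb250 (1.59 ± 0.34, adjusted p = 0.012, lost without Sorb250 3 or ND 1, adjusted p up to 0.0576). Here ND was the group that stood low, since NS was at 48.7, 60.9 and 55.3 CPM. Stk39 (SPAK), a kinase that controls ion cotransporters, was at 13.7, 16.7 and 11.9 CPM in ND and 2.09, 1.59 and 3.17 in Sorb250 (-2.58 ± 0.60, adjusted p = 0.0175, lost without Sorb250 1 or Sorb250 2, adjusted p up to 0.0828). Slc5a3, the myo-inositol transporter and a classical target of the osmotic factor NFAT5, was at 11.8, 11.9 and 18.3 CPM in ND and 13.1, 7.94 and 7.13 in Sorb250. Its libraries overlapped and the difference did not pass (-0.54 ± 0.35, adjusted p = 0.4).

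Among 17 tested heat shock proteins and chaperones, Hspb1, Hsph1 and Hspa1b were higher in Sorb250, none was lower, and the median of 0.08 was close to that of all genes. Their RNA is induced through heat shock elements, bound by HSF1. The 250 bases before the RefSeq start of the 2 most changed of the 3 are shown with each match to GAANNTTC, which reads the same on both strands, in capitals (RefSeq, GRCm38.p6, while the counts were made on mm9). At least 1 match is present in 6.69% of the 32851 promoter windows of that length. Hspb1 (chr5:135887669-135887918, plus strand) has 2 matches and Hspa1b (chr17:34959239-34959488, minus strand) has 1, while Hsph1 has 0 in either of its 2 windows. These are descriptions of the letters and not shown to be sites.
Hspb1: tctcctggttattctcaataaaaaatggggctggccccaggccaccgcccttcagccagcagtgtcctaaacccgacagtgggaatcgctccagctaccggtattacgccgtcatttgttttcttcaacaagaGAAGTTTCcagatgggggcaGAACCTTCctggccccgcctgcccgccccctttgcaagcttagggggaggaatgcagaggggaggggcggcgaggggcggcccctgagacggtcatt
Hspa1b: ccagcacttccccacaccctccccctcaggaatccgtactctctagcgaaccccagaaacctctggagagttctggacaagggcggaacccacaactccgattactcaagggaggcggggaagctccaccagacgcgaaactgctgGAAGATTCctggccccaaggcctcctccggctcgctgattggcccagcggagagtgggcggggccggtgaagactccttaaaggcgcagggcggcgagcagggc
Hspb1 (Hsp27), a small heat shock protein that binds unfolded proteins and actin, was at 143, 186 and 204 CPM in ND, 726, 595 and 662 in Sorb250 and 135, 145 and 211 in NS. The lowest sorbitol library was above the highest of the other 6, which covered 1 range (1.90 ± 0.25 against ND, adjusted p = 0.00034). Hspa1b, an inducible Hsp70, was at 0.473, 0 and 1.59 CPM in ND and 7.86, 11.1 and 15 in Sorb250, with 3 counts in all ND libraries and 48 in Sorb250, a depth-adjusted ratio of 15.2 (exact 95% interval 4.89 to 76.2) (adjusted p = 0.00784, lost without ND 1, adjusted p = 0.0523). It fell below the filter with the 6 libraries alone and with a minimum count of 20. Reads of Hspa1b cannot be told apart with certainty from those of its near-identical neighbour Hspa1a. Hsph1 (Hsp105), a partner of Hsp70, was at 86.1, 75.2 and 111 CPM in ND, 220.0, 174 and 188 in Sorb250 and 165, 116 and 112 in NS (1.09 ± 0.28, adjusted p = 0.0299, lost without any 1 Sorb250 library, ND 1 or ND 2, adjusted p up to 0.114).

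Both metallothioneins, small cysteine-rich proteins that hold zinc and copper, were lower in Sorb250. Their genes lie side by side on chromosome 8 and are switched on by the zinc sensor MTF1 through metal response elements. The 250 bases before each RefSeq start follow (GRCm38.p6), with every match to the element's core, TGCACNC or TGCGCNC on either strand, in capitals. Mt1 (chr8:94178839-94179088, plus strand) holds 1 match and Mt2 (chr8:94172368-94172617, plus strand) holds 3. At least 1 is present in 21.4% of the 32851 windows and 3 or more in 1.26%, and a match is a description of the sequence only. Bases of Mt1 and Mt2 outside these windows were not searched, so both counts depend on where the RefSeq start is placed.
Mt1: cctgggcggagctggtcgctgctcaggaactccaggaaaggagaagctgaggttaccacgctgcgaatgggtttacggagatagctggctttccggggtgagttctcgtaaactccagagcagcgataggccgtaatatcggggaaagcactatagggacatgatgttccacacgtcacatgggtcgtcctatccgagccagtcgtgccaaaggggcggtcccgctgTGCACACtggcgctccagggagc
Mt2: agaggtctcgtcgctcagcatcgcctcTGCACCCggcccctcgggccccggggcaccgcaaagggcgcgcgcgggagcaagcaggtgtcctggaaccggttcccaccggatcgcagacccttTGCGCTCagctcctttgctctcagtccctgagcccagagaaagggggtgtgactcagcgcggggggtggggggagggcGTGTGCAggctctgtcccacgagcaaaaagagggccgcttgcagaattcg
Mt1 was at 1057, 883 and 986 CPM in ND, 104, 138 and 76 in Sorb250 and 581, 519.8 and 858 in NS. The sorbitol libraries lay far below all others, and NS below ND (-3.20 ± 0.28 against ND, adjusted p = 1.32e-05, and -2.62 against NS, adjusted p = 0.000149). Mt2 was at 3778, 2511 and 3206 CPM in ND, 709, 623 and 403 in Sorb250 and 1844, 1657 and 3184 in NS, with a like order of the group means (-2.45 ± 0.31, adjusted p = 0.000336). Both passed whichever 1 of the 6 libraries was left out. Zinc or metal levels were not measured.

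Of 22 glutathione and antioxidant enzymes, all tested, Gpx2, Gstm1 and Gclm were lower, none was higher and 19 did not pass, with a median of -0.35. Gpx2, a glutathione peroxidase of epithelia, was at 34.1, 28.6 and 22.3 CPM in ND and 6.28, 3.18 and 4.75 in Sorb250, with NS the highest at 50.2, 59.1 and 29.4 (-2.53 ± 0.47, adjusted p = 0.00503). Its count may include reads of a near-identical pseudogene. Gclm, the regulatory subunit of the first enzyme of glutathione synthesis, was at 150.0, 155 and 132 CPM in ND and 74.4, 53.2 and 45.1 in Sorb250 (-1.33 ± 0.30, adjusted p = 0.015), and Gstm1, a glutathione transferase, at 53, 91.9 and 68.4 in ND and 22, 24.6 and 30.1 in Sorb250 (-1.47 ± 0.31, adjusted p = 0.0101). Neither overlapped between the groups. Gclm missed the threshold without Sorb250 2 or Sorb250 3 (adjusted p up to 0.0845) and Gstm1 without Sorb250 1 (adjusted p = 0.0603).

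Oxygen-responsive genes, which HIF factors raise when oxygen falls, were lower in Sorb250 than in ND in 5 of 15 tested cases (Egln3, Bnip3, Ero1l, Ddit4 and Car4), none was higher, and the list median was -0.86. Egln3, a prolyl hydroxylase that marks HIF for decay, was at 124, 97.9 and 62.1 CPM in ND, 11, 23 and 23 in Sorb250 and 76.9, 92.7 and 49.1 in NS, with sorbitol below both (-2.34 ± 0.40, adjusted p = 0.00257). Bnip3, a mitophagy receptor, was at 295, 500.1 and 201 CPM in ND and 57.1, 123 and 90.3 in Sorb250 (-1.88 ± 0.39, adjusted p = 0.00924), and Ero1l, an oxidase of the endoplasmic reticulum, at 134, 432 and 153 in ND and 35.6, 56.4 and 79.2 in Sorb250 (-2.07 ± 0.46, adjusted p = 0.0137). In both, ND 2 was the highest library, and without it Ero1l was at -1.36. Ddit4 (REDD1), an inhibitor of mTORC1 and the 1 gene of 16 in the unfolded protein and integrated stress list to pass, was at 1539, 2778 and 1799 CPM in ND and 589, 833 and 762 in Sorb250 (-1.49 ± 0.42, adjusted p = 0.0466). Car4, a membrane carbonic anhydrase, was at 26, 23.9 and 19 CPM in ND, 5.24, 9.53 and 2.38 in Sorb250 and 4.3, 2.73 and 1.78 in NS, so that ND was the group that stood high (-2.01 ± 0.50, adjusted p = 0.0248). Without ND 2, 2 of the 15 passed, without Sorb250 1, 1 did, and with replicates 2 and 3 alone Ddit4 alone did. Single calls were lost without Sorb250 1 for Bnip3, Sorb250 1, Sorb250 2 or ND 2 for Ero1l, any 1 of the 6 libraries for Ddit4 and Sorb250 1, Sorb250 3, ND 1 or ND 2 for Car4, with adjusted p up to 0.0579, 0.0761, 0.167 and 0.114.

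The glycolysis genes that passed were all lower. Of 21 tested genes of glycolysis and lactate export, Ldhb, Gpi1, Aldoa and Pfkfb3 were lower, none was higher and 17 did not pass (median -0.62). Ldhb, a lactate dehydrogenase subunit, was at 262, 479.9 and 407 CPM in ND, 71.2, 101 and 99.8 in Sorb250 and 189.7, 204 and 432 in NS (-2.08 ± 0.34, adjusted p = 0.00218). Gpi1, which converts glucose 6-phosphate to fructose 6-phosphate, was at 661, 1165 and 614 CPM in ND and 307, 385 and 306 in Sorb250 (-1.29 ± 0.31, adjusted p = 0.0224), and the aldolase gene Aldoa at 1726, 2209 and 1151 in ND and 556, 787 and 748 in Sorb250 (-1.28 ± 0.34, adjusted p = 0.0321). Again no sorbitol library reached an ND library, and ND 2 was the highest. Pfkfb3, which makes the activator of phosphofructokinase, was at 36.4, 93.1 and 34.2 CPM in ND and 15.2, 27.8 and 18.2 in Sorb250 (-1.40 ± 0.40, adjusted p = 0.0494). Without ND 2 the median was -0.30, and Ldhb alone passed there, without any 1 Sorb250 library and with replicates 2 and 3 alone. Gpi1 was lost without any 1 Sorb250 library or ND 2, Aldoa without any 1 Sorb250 library, ND 1 or ND 2 and Pfkfb3 without any 1 Sorb250 library or ND 2 (adjusted p up to 0.0953, 0.138 and 0.218). None of the 26 subunits of oxidative phosphorylation passed by edgeR or by DESeq2, 0 had an unadjusted p under 0.05, and their median was -0.04.

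Of 22 tested genes of cholesterol synthesis and uptake, 2 were lower, Cyp51 among them, none was higher, and the median was -0.67. Cyp51, lanosterol demethylase, was at 265, 209 and 279 CPM in ND, 117, 156 and 173 in Sorb250 and 242, 239.9 and 220.4 in NS (-0.76 ± 0.21, adjusted p = 0.0405). ND and NS shared 1 range above Sorb250. None of the 22 passed when libraries were scaled by their totals alone, and the call of Cyp51 was lost without any 1 Sorb250 library, ND 1 or ND 3 (adjusted p up to 0.179). With replicates 2 and 3 alone 0 of the 22 passed, and DESeq2 called 6 of them lower. In fatty acid synthesis, 1 of 13 genes passed, where 5.87% of all tested genes did. Fads2, a desaturase, was at 16.6, 15.5 and 4.77 CPM in ND and 1.05, 0.794 and 0 in Sorb250, 54 counts against 3, a depth-adjusted ratio of 0.0527 (exact 95% interval 0.0105 to 0.163) (adjusted p = 0.00784). Fads2 fell below the filter with the 6 libraries alone, with the 12 without NS and with a minimum count of 20, and it missed the threshold with replicates 2 and 3 alone. The stearoyl-CoA desaturase Scd1 (-1.26, adjusted p = 0.0545) passed with the 6 libraries alone and by DESeq2.

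**Figure D4:**
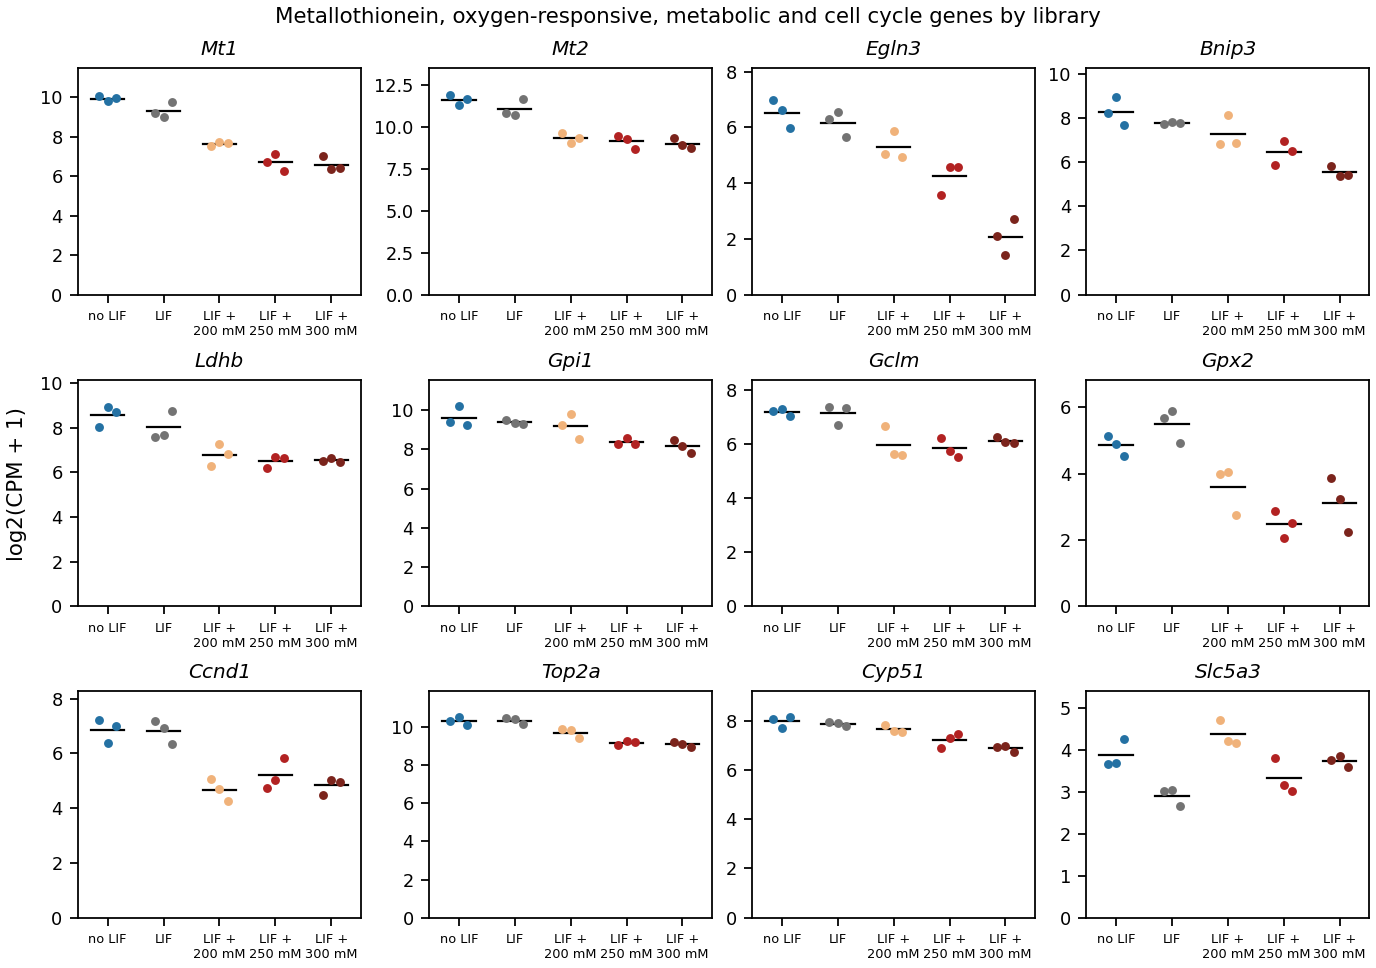
Expression of 12 genes (metallothioneins, oxygen-responsive, metabolic, antioxidant and cell cycle genes, and the osmolyte transporter Slc5a3) in each of the 15 libraries, as log2(CPM + 1), with the line at the mean of the 3 libraries of a group. All but Slc5a3 are among the 281 genes called lower. In each of the 281 the 3 libraries at 250 mM sorbitol lie below every library without LIF, as in 14.7% of all tested genes.

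Of the cell cycle genes, Ccnd1 (cyclin D1) was at 149, 81.2 and 126 CPM in ND, 25.7, 31.8 and 56.2 in Sorb250 and 143, 119 and 80.3 in NS (-1.66 ± 0.34, adjusted p = 0.00953, lost without Sorb250 1 or Sorb250 2, adjusted p up to 0.0603). It and Cdkn1c, given above, were the 2 of 13 tested G1 genes to pass, where 5.87% of all tested genes did, and they moved in opposite directions. Cdkn2a was also called lower with RLE factors, by DESeq2, with the 6 libraries alone and with no filter on low counts. With replicates 2 and 3 alone none of the 13 passed. Top2a, the topoisomerase of dividing cells, was at 1248, 1441 and 1092 CPM in ND, 532, 599 and 589.9 in Sorb250 and 1386, 1328 and 1122 in NS (-1.14 ± 0.21, adjusted p = 0.00417). It was the 1 gene of 22 in the S phase and mitosis list to pass, and the median of that list was -0.18. None of 20 tested p53 targets passed by edgeR (median -0.46), with 6 at an unadjusted p under 0.05, while DESeq2 called 2 of them lower (Gdf15 and Trp53inp1). None of 17 tested actin and YAP-linked genes passed by edgeR either (median -0.03), with 4 at an unadjusted p under 0.05, and DESeq2 called Tpm1 lower. Bmp4, a ligand that supports self-renewal together with LIF, was the 1 of 10 BMP and Id genes to pass, at 9.94, 5.97 and 16.7 CPM in ND, 40.9, 62.7 and 45.9 in Sorb250 and 15.8, 9.09 and 8.03 in NS (2.15 ± 0.52, adjusted p = 0.022, lost without any 1 Sorb250 library, ND 1 or ND 2, adjusted p up to 0.0846).

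Epithelial junction genes moved both ways, with 1 of 17 higher and 3 lower. S100a6, a calcium-binding protein, was at 70.5, 159 and 219 CPM in ND and 567, 551 and 546 in Sorb250, the latter nearly equal (1.90 ± 0.33, adjusted p = 0.00333). The 3 that were lower were Dsp (desmoplakin, -1.87 ± 0.47), Crb3 (a polarity protein, -1.32 ± 0.34) and Cldn7 (a claudin, -1.15 ± 0.28), with adjusted p of 0.0264, 0.0291 and 0.0237. Dsp was lost without any 1 Sorb250 library, ND 1 or ND 3, Crb3 without any 1 Sorb250 library, ND 1 or ND 3 and Cldn7 without Sorb250 1, Sorb250 3, ND 2 or ND 3 (adjusted p up to 0.118, 0.123 and 0.111). Esrp1, a splicing factor of epithelial cells and among the 10 lowest log2 differences, was at 45.9, 50.1 and 73.2 CPM in ND, 6.81, 11.1 and 4.75 in Sorb250 and 18.2, 16.4 and 26.8 in NS (-2.89 ± 0.41, adjusted p = 0.000818). Sorbitol was thus lowest and ND highest.

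Germline and meiosis genes also moved both ways, with 2 of 13 higher and 3 lower. Stra8, the meiosis gene that retinoic acid induces, was at 98, 76.4 and 90.7 CPM in ND, 185, 333 and 250.2 in Sorb250 and 88.9, 96.3 and 98.1 in NS (1.53 ± 0.33, adjusted p = 0.0115, lost without Sorb250 2, adjusted p = 0.0609). Rpl10l, a retrogene copy of Rpl10 whose reads may be shared with it, was at 8.52, 8.36 and 15.9 CPM in ND and 47.1, 38.9 and 45.1 in Sorb250 (2.0 ± 0.31, adjusted p = 0.00159). Tdrd12, of the piRNA pathway, was at 129.7, 185 and 78 CPM in ND, 16.2, 25.4 and 19 in Sorb250 and 116, 98.2 and 60.7 in NS (-2.69 ± 0.35, adjusted p = 0.00034). Sycp3, of the synaptonemal complex, was at 19.9, 35.8 and 24.7 CPM in ND and 1.57, 3.97 and 3.96 in Sorb250 (-3.09 ± 0.54, adjusted p = 0.00333), and Smc1b, a meiotic cohesin, at 31.2, 44.2 and 31.8 in ND and 16.2, 15.1 and 11.9 in Sorb250 (-1.28 ± 0.29, adjusted p = 0.0165, lost without any 1 Sorb250 library or ND 2, adjusted p up to 0.0826). The libraries of the groups did not overlap in any of the 5, nor in any other of the 551 called genes.

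The 10 largest differences in each direction, among genes that reached a mean of 20 CPM in either group, included several outside the lists. Pramel7 and Pramel6, relatives in a family of PRAME-like genes expressed in the early mouse embryo, led the higher ones. Pramel6 was at 0, 1.19 and 3.18 CPM in ND and 39.8, 30.2 and 27.7 in Sorb250 (4.62 ± 0.62, adjusted p = 0.000453). Pramel7 had 3 counts in ND, all in ND 3, and 97 in Sorb250, where it was at 20.9, 27 and 18.2 CPM, a depth-adjusted ratio of 30.7 (exact 95% interval 10.2 to 151) (adjusted p = 0.0223, lost without Sorb250 1, Sorb250 2, ND 1 or ND 2, adjusted p up to 0.102). Without ND 3 the difference of Pramel6 was 6.22 and without ND 1 3.75. Reads of the 2 relatives may be split by the counting. Mras, a Ras-related GTPase, was at 7.1, 1.19 and 11.9 CPM in ND, 151, 85.7 and 97.4 in Sorb250 and 47.3, 49.1 and 27.7 in NS (3.94 ± 0.54, adjusted p = 0.000649). NS lay between the groups. Vegfc, a growth factor of lymphatic vessels, was at 2.37, 1.19 and 4.77 CPM in ND and 44, 36.5 and 23.8 in Sorb250 (3.57 ± 0.60, adjusted p = 0.00255), Spink3, a trypsin inhibitor, at 0, 2.39 and 3.18 in ND and 26.7, 14.3 and 20.6 in Sorb250 (3.69 ± 0.68, adjusted p = 0.00439), and AA467197 at 2.84, 1.19 and 1.59 in ND and 18.9, 24.6 and 30.9 in Sorb250 (3.51 ± 0.47, adjusted p = 0.000449). In all 3 the ND libraries were at or near the counting floor. The remaining 4 of the 10, Igf2, Plac1, Eras and Hand1, are given above.

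In the other direction, Pdzk1, a scaffold for membrane transporters, was at 42.6, 39.4 and 27.9 CPM in ND, 5.24, 3.18 and 3.17 in Sorb250 and 15.8, 12.7 and 18.7 in NS (-3.18 ± 0.40, adjusted p = 0.000336). ND was the highest of the 3 groups and Sorb250 the lowest. Bmp7, a BMP ligand, was at 15.6, 39.4 and 24.7 CPM in ND and 2.62, 4.76 and 3.17 in Sorb250 (-2.88 ± 0.59, adjusted p = 0.00947, lost without Sorb250 1, adjusted p = 0.0592), and Trim47, a ubiquitin ligase of the TRIM family, at 19.4, 23.9 and 19 in ND and 4.19, 1.59 and 1.58 in Sorb250 (-2.93 ± 0.59, adjusted p = 0.00784). In these the NS libraries were close to the ND range, at 30.6, 16.4 and 26.8 CPM for Bmp7 and 25.3, 18.2 and 17.8 for Trim47. Nfatc4, a factor that calcineurin activates, was at 69.1, 14.3 and 19 CPM in ND and 2.09, 4.76 and 3.17 in Sorb250 (-3.43 ± 0.89, adjusted p = 0.0304, lost without any 1 Sorb250 library or ND 1, adjusted p up to 0.178), and at -2.36 without ND 1. Adm, the vasodilator peptide adrenomedullin and an oxygen-responsive gene, was at 18, 125 and 15.9 CPM in ND and 1.57, 7.94 and 3.96 in Sorb250 (-3.56 ± 0.75, adjusted p = 0.0105). ND 2 held most of its ND signal, and without Sorb250 1 or ND 2 the call was lost (adjusted p up to 0.0635). The difference without ND 2 was -2.0.

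**Figure D5:**
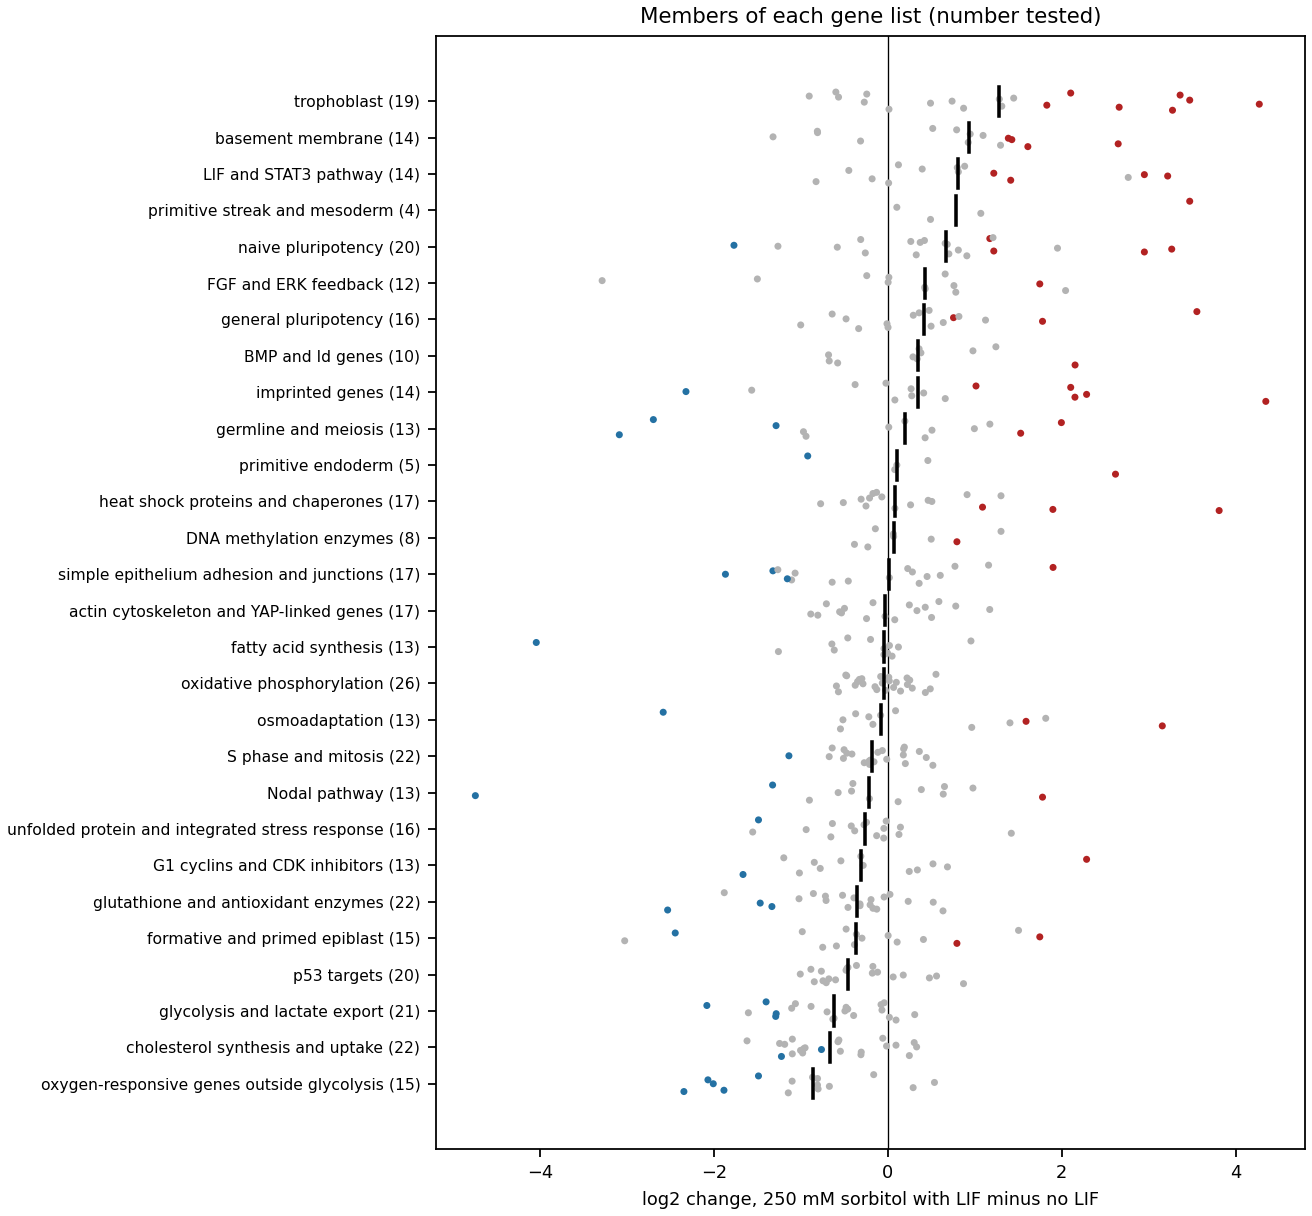
Log2 difference of every tested gene of each list between 250 mM sorbitol and no LIF, with genes past an adjusted p of 0.05 in colour and the list median as a bar. Lists with 4 or more tested genes are drawn. The trophoblast, basement membrane and LIF pathway medians lie above 0 at 1.28, 0.94 and 0.81, and those of oxygen-responsive genes and cholesterol synthesis below it at -0.86 and -0.67.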

How the data were processed

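RNA of 15 libraries (5 groups of 3, biological triplicates per the labels) was prepared by Lexogen's QuantSeq 3' protocol. Base calling used CASAVA 1.8.2, alignment STAR on mm9, counting HTSeq, and the authors' tests edgeR, per the submitters' processing notes; the sources used here do not give the annotation, strand setting, filters or other versions. The deposited raw counts, whole numbers per gene symbol, were the only values used, joined on symbol over 4 tables (21516 symbols). Replicates differed beyond sampling noise (chi-square per degree of freedom 2.45 to 12.9 within ND and Sorb250), so none was merged. Between 12407 and 14465 genes were detected in the 6 libraries.

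edgeR 4.0.16 in R 4.3.3 (glmQLFit, glmQLFTest) was fitted to all 15 libraries with a coefficient per group, TMM factors and Benjamini-Hochberg adjustment (threshold 0.05), after filterByExpr with a minimum count of 10 and a minimum total of 15. The SE is the absolute log2 difference over the square root of F. Each p-value sets a difference against the spread between replicate libraries. That spread was estimated over all 15 libraries (10 residual degrees of freedom), with information shared across genes. A ratio with 1 to 3 counts in a group carries an exact binomial 95% interval. The script was tested on simulated data. Same-numbered ND and Sorb250 libraries were not taken as paired.

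The members and the 32 gene lists were chosen with earlier results of these data known. Named genes are 20 always given, the 10 highest and 10 lowest called differences without overlap whose higher group averaged 20 CPM or more, and up to 5 called members per list, at 10 CPM or more, by adjusted p; Phlda2 is named beside its list's count. Some genes that this rule takes are not reported here. Files gave Tfcp2l1 as Tcfcp2l1. Alternatives were other scalings, filters, fits and DESeq2 1.42.0, single libraries left out, and a replicate block. Promoter sequences are from RefSeq (GRCm38.p6); no coordinates were converted.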

Additional observations from a re-analysis of the deposited data

How the results depend on the processing

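Main counts were 551 genes (270 higher, 281 lower). They stayed within 1.5 times of this with RLE factors (557), library totals (528), TMM without ribosomal protein genes (552), DESeq2 (790), the 6 libraries alone (701), all but NS (573), a minimum count of 20 (472) and, chosen after the data were seen, without NS 3 (758, 366 higher and 392 lower). No filter on low counts gave 836 (430 higher, 406 lower). With replicates 2 and 3 alone there were 140 (91 and 49). Leaving out 1 Sorb250 or ND library gave 206 to 434 (125 to 210 higher, 81 to 224 lower). Such fits have fewer samples. The replicate block gave 1419 (703 and 716) over 15 libraries and 1044 (549 and 495) over 6. With the block over 15 libraries Socs3, Krt18 and Tfcp2l1 also passed, 9 basement membrane genes were higher and Nid2 was lower. Of general pluripotency genes 2 (Epcam and Lin28a) were lower there, and so was Rhox9. Aqp3, Nfat5 and Slc6a6 were also higher with this block, and Hsp90aa1 and Cdkn2a were lower. Same-numbered ND and Sorb250 libraries correlated in their deviations by 0.25, 0.14 and 0.05, and differently numbered ones by -0.22 to 0.10. Sorb250 3 correlated best with ND 2 (0.10). The same-numbered values did not all reach the limit of 0.1 set here, so the numbers are not taken as pairs. Whether same-numbered libraries shared a batch is not given in the sources used here, and these values do not decide it.

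Of 80 genes that the naming rule takes and that were past the threshold, 37 passed without each of the 6 libraries in turn. With library totals 73 passed and with replicates 2 and 3 alone 33, and none changed direction in any alternative run. Those lost with library totals included Cyp51, Dppa3, Skil, Pfkfb3, Cldn7 and Ddit4. With the 6 libraries alone Cyp51 and Dnmt3b missed the threshold, and with no filter on low counts Cyp51, Dnmt3b, Crb3 and Trim28 did. The Sox2 log2 change (0.00 in the main fit, not called) ran from -0.33 to 0.32 when single libraries were left out, and turned negative with RLE factors (-0.00695), DESeq2 (-0.00717), the 6 libraries alone (-0.00245), without Sorb250 2 (-0.00512), Sorb250 3 (-0.13), ND 2 (-0.33) or NS 3 (-0.000283); the cause was not tested. At 1.42 to 3.58 CPM for 3 counts, genes at 0 in a library cannot be told from low expression.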

Other observations

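Some genes outside the lists, all chosen after their values were seen, also differed. Upp1, which splits uridine and is the most abundant gene among those higher with sorbitol, was at 1335, 2322 and 1587 CPM in ND, 4497, 4154 and 4180.2 in Sorb250 and 3635, 3474 and 2576 in NS (log2 difference 1.29 ± 0.27, adjusted p = 0.0105). Ly6a (Sca-1), a surface antigen of blood and tissue progenitors, was at 6.63, 20.3 and 14.3 CPM in ND, 119, 115 and 119 in Sorb250 and 14.3, 17.3 and 22.3 in NS (3.18 ± 0.32, adjusted p = 5.71e-05). The 3 sorbitol libraries of Ly6a were nearly equal and far above the other 6. Pros1, the anticoagulant protein S, was at 14.7, 10.7 and 20.7 CPM in ND and 106, 92.9 and 118 in Sorb250 (2.76 ± 0.29, adjusted p = 0.000102), and Mylpf, a muscle myosin light chain, at 82.4, 152 and 79.6 in ND and 594, 469.9 and 421 in Sorb250 (2.26 ± 0.27, adjusted p = 0.000307). Npm1, a nucleolar histone chaperone of ribosome assembly, was lower, at 3448, 4173 and 2469 CPM in ND and 1532, 1469 and 1755 in Sorb250 (-1.09 ± 0.25, adjusted p = 0.0176).

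Symbols of small nucleolar RNAs (Snora and Snord), which guide chemical modification of ribosomal RNA, were counted as a group after their values were seen. Of 32 tested, 15 were higher in Sorb250 than in ND and none was lower by edgeR, where 2.88% of all tested genes were higher and 2.99% lower, and their median was 2.16. Snora3 was at 10.4, 17.9 and 31 CPM in ND, 204, 175 and 129.9 in Sorb250 and 64, 20.9 and 34.8 in NS (3.13 ± 0.47, adjusted p = 0.00125). Snora41 was at 2.37, 1.19 and 15.9 CPM in ND, 62.3, 63.5 and 87.9 in Sorb250 and 16.7, 13.6 and 16.1 in NS (3.44 ± 0.55, adjusted p = 0.0019), and Snora44 at 9.47, 5.97 and 32.6 in ND, 140.4, 134 and 136 in Sorb250 and 72.6, 25.4 and 50.9 in NS (3.08 ± 0.53, adjusted p = 0.0032). The libraries of ND and Sorb250 did not overlap in any of these 3, nor in any other of the 551 called genes. These RNAs lie within introns of host genes, are short and mostly lack a poly(A) tail, so what a 3' tag at such a symbol came from was not tested.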
